A study of Mus musculus with 6 samples.

Results

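The cytosolic ribosomal protein genes were described in mouse heart, across 3 libraries of ApoE-/- Timp3-/- hearts (numbered 4, 5 and 6, below the double mutants) and 3 libraries of ApoE-/- littermate hearts (numbered 1, 2 and 3, the controls). By their labels all mice were 32 weeks old and ApoE-/-, a genotype whose loss of apolipoprotein E raises blood cholesterol, and the double mutants were also Timp3-/-, Timp3 being a secreted inhibitor of matrix-degrading and membrane-shedding proteases. Members were the protein-coding genes with the symbol Rpl or Rps and a number, together with Rplp0, Rplp1, Rplp2 and Rpsa, without the Rps6k kinases and without symbols that end as pseudogenes do. The rule took 86 genes, of which 84 had a value among 36760 genes with one, and 82 were among the 11378 genes that passed the filter on low values and were tested. Rpl13 and Rpl41 were not analysed here. Rps19bp1 is taken by the letters of the rule but encodes a protein that binds Rps19, not a subunit; the other members tested were 48 genes of the large subunit and 33 of the small.

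Each cytosolic ribosome holds one copy of nearly every ribosomal protein, the stalk proteins P1 and P2 being the known exception, around an RNA core that decodes messenger RNA in the small subunit and joins amino acids in the large one. Cells make these proteins in step: their messenger RNAs are short and abundant, and most begin with a C followed by a run of pyrimidines, the 5' terminal oligopyrimidine (TOP) tract, through which mTORC1 and LARP1 control their translation. Ribosome number rises with growth of heart muscle, and adult muscle uses the paralog Rpl3l in place of part of its Rpl3. Ribosomal protein genes have also left many processed pseudogenes in the mouse genome, whose sequences resemble the spliced messenger RNAs.

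The tract is a known mark of these genes at the start of transcription, so 30-base windows around the listed start are shown for 5 members on which results below turn, and for Rpl3l, which has none. Promoters were found for 64 members in the RefSeq table of GRCm38.p6. In 14 of them (21.9%) a listed start was itself a C followed by at least 4 bases that were each C or T, against 3.01% of 27025 genes in the table. The window holds 10 bases before the start and 20 from it on, and capitals mark the tract.
Rpl15, chr14:18270967-18270996, minus strand: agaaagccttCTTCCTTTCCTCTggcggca
Rpl35, chr2:39005112-39005141, minus strand: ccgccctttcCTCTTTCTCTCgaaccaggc
Rps6, chr4:86857348-86857377, minus strand: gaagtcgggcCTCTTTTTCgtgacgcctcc
Rps21, chr2:180257369-180257398, plus strand: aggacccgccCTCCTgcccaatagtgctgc
Rps27rt, chr9:114982720-114982749, minus strand: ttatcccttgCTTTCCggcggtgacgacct
Rpl3l, chr17:24727816-24727845, plus strand: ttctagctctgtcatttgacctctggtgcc
The tract ran for 13 bases in Rpl15, 11 in Rpl35, 9 in Rps6, 6 in Rps27rt and 5 in Rps21. A listed start can lie a few bases from the start used in heart, and a start without the tract says only that these letters are not there.

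A second run of letters shared by many members lay further upstream. The letters CCGGAAG, searched on both strands in the 250 bases before and 50 bases after the start, were found in 25 of the 64 members (39.1%), against 9.93% of all genes in the table. Rpl15 holds them at 2 places and Rps18 is shown with 1; capitals mark the match. 
Rpl15, chr14:18271125-18271154, minus strand: tgggagagcatCCGGAAGcggcgggctgtc
Rpl15, chr14:18271030-18271059, minus strand: acaatgccccaCCGGAAGgagggtcgccgg
Rps18, chr17:33955722-33955751, minus strand: agaagcaatttCCGGAAGtggacctccggg
Both features are descriptions of sequence, and no binding was measured here.

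The tissue and the libraries were checked before the members were compared. Cardiomyocyte genes dominated every library, with summed scaled FPKM of 17410 to 22760 over 10 markers in the double mutants and 14419 to 18383 in the controls. FPKM, the unit the authors deposited, counts fragments per kilobase of transcript and relative to the mapped total; it was scaled between libraries by factors of 0.897 to 1.17. Timp3, the targeted gene, was listed at 20.2, 28.0 and 29.6 FPKM in libraries 4, 5 and 6 and at 52.1, 38.0 and 36.3 in libraries 1, 2 and 3, lower in each double mutant but not lost (log2 difference -0.61, adjusted p = 0.289 by limma). Apoe was likewise not at 0, at 3.50, 2.08 and 1.84 FPKM in libraries 4, 5 and 6, against 4.15, 2.29 and 2.85 in libraries 1, 2 and 3. The labels do not say which stretch of either gene is deleted, so these levels do not check them fully. Aligned bases came to 683 to 910 megabases per double mutant and 654 to 1339 per control. In whole hearts, fewer cells of a type and less RNA per cell cannot be told apart.

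Ribosomal protein genes were on the whole somewhat higher in the double mutants, but no member passed the test over all genes, and fewer differed at an unadjusted p under 0.05 once library 4, or control library 1 or 3, was left out. Of 82 members, 74 (90.2%) had a log2 difference above 0, against 48.8% of all genes tested. Their median difference was 0.31, against -0.006 over all genes. With limma and Benjamini-Hochberg adjustment at 0.05, 0 of the 82 members were called, where 0.0439% of all genes were called; the smallest adjusted p among those described below was 0.237. At an unadjusted p under 0.05, 26 members were higher in the double mutants, where 6.96% of all genes were, and 1 was lower, where 5.23% were. The 3 double mutants lay above the 3 controls without overlap for 26 members, against 9.97% of all genes in that direction, and below them for Rpl30 alone, against 9.21%. The members were chosen with earlier results of these data known, so these counts describe the genes and test nothing about them as a set.

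The level of the members also varied between libraries of 1 genotype. Relative to each gene's mean over the 6 libraries, the median deviation of the members was 0.40 in library 4, 0.07 in library 5 and -0.02 in library 6 of the double mutants, and -0.21 in library 1, 0.01 in library 2 and -0.26 in library 3 of the controls, on the log2 scale. Library 4 held the highest value for 69 of the 82 members, and library 3 the lowest for 40 and library 1 for 26. Control library 2 thus lay above double mutant library 6, and the genotypes overlapped in this median.

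**Figure D1:**
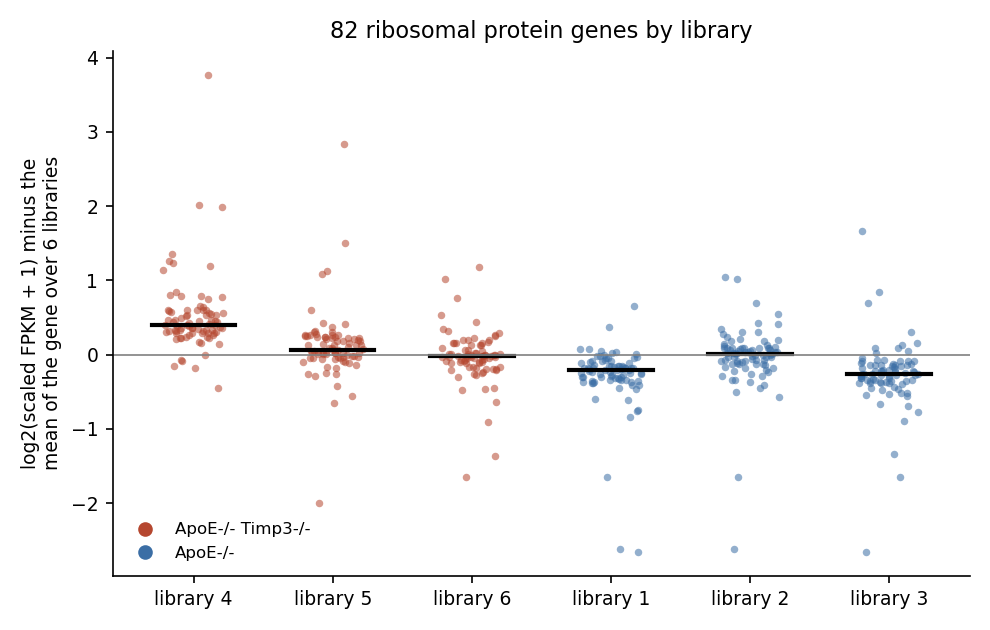
Each point is 1 of the 82 ribosomal protein genes; the y axis gives log2(scaled FPKM + 1) in a library minus the mean of the gene over the 6 libraries, and the black bars are medians. Library 4 lies highest, at a median of 0.40, and libraries 1 and 3 lowest, at -0.21 and -0.26.

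The summed level also put library 4 highest and control library 2 above double mutant library 6. Scaled FPKM added up over all 84 members to 4198, 3190 and 2917 in libraries 4, 5 and 6, against 2559, 3046 and 2577 in libraries 1, 2 and 3. The means were 3435 ± 675 in double mutants and 2728 ± 276 in controls (SD, n = 3 each), a ratio of 1.26 with an exact two-sided permutation p of 0.2, where 0.1 is the smallest that 3 against 3 libraries allow. The large subunit (ratio 1.27) and the small subunit (ratio 1.25) had like ratios. Without library 4 the ratio was 1.12 and the median difference of the members 0.17, with 66 of 82 above 0. At an unadjusted p under 0.05, 16 members were then higher in the double mutants, where 7.36% of all genes were, and 2 were lower, where 6.18% were. Leaving out a control also moved the count of higher members. It was 14 without library 3, where 4.46% of all genes were, and 17 without library 1, where 5.71% were. Without library 2 it was 28, where 6.7% of all genes were. The ratio and the median difference stayed higher than without library 4. They were 1.23 and 0.24 without library 3, 1.22 and 0.28 without library 1, and 1.34 and 0.39 without library 2. Libraries 3 and 4 were also left out together, a setting added after the values were seen. The count of higher members was then 12, where 5.16% of all genes were, the summed ratio 1.09 and the median difference 0.11.

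Library 4 also stood apart in the red cell markers. Their summed scaled FPKM, over 8 genes, was 23529, 852 and 2135 in libraries 4, 5 and 6, against 881, 685 and 207 in libraries 1, 2 and 3, and all 6 of those tested were above 0, with a median log2 difference of 2.75. Young red cells carry haemoglobin messenger RNA, and the part of these cells in the level of the ribosomal protein genes was not tested. Marker lists of other cell types differed as well: the 10 fibroblast markers were all below 0 (median -0.49; sums of 218 to 247 in double mutants and 249 to 342 in controls), and the 10 endothelial markers had a median of -0.29 (sums of 135 to 172 in double mutants and 164 to 202 in controls). No marker of the red cell, fibroblast or endothelial list was at 0 in every library. Atrial markers added up to 175, 995 and 1465 in libraries 4, 5 and 6, against 1479, 811 and 124 in libraries 1, 2 and 3, but most of the sum in library 2 was Nppa alone, at 802 FPKM. Myl7, the atrial light chain, was listed at 13.4, 173 and 229 FPKM in libraries 4, 5 and 6, against 409, 2.09 and 1.21 in libraries 1, 2 and 3. By Myl7, 1 double mutant and 2 controls were thus low in atrial messenger RNA.

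Control library 1, among the lowest in the members, stood apart in other lists. Its adipocyte markers added up to 141, against 4.47 and 3.94 in control libraries 2 and 3, and the sums in libraries 4, 5 and 6 were 1.16, 30.6 and 3.19; all 5 tested were below 0, with a median log2 difference of -0.59 and none at an unadjusted p under 0.05. Its macrophage markers added up to 148, where the other 5 libraries had 61.1 to 83.5. No marker of the atrial, adipocyte or macrophage list was at 0 in every library. The part of these cells in the level of the members was not tested.

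Ribosomal protein messenger RNAs are short, and short transcripts as a class also differed between libraries. Among 134 other protein-coding genes whose main transcript had up to 500 nt, the median deviation was 0.24, -0.08 and -0.11 in libraries 4, 5 and 6, against -0.10, 0.15 and -0.07 in libraries 1, 2 and 3. Libraries 4 and 2 were therefore high in short transcripts and the other 4 were not, whichever the genotype, and the median log2 difference between genotypes in that class was -0.004. In genes over 4000 nt the order was turned, with -0.18 in library 4 and -0.11 in library 2.

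Set against short genes, the members separated by genotype. For transcripts of up to 1000 nt, the median of 72 members minus the median of 949 other protein-coding genes was 0.22, 0.17 and 0.08 in libraries 4, 5 and 6, against -0.11, -0.15 and -0.22 in libraries 1, 2 and 3. All double mutants were above 0 and all controls below it, and the spread between libraries 4 and 6 was smaller than before. This comparison was chosen after the values were seen and carries no test. Among the members themselves, those of up to 500 nt (32 genes, median difference 0.30) and the longer ones (50 genes, median 0.31) did not stand apart.

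**Figure D2:**
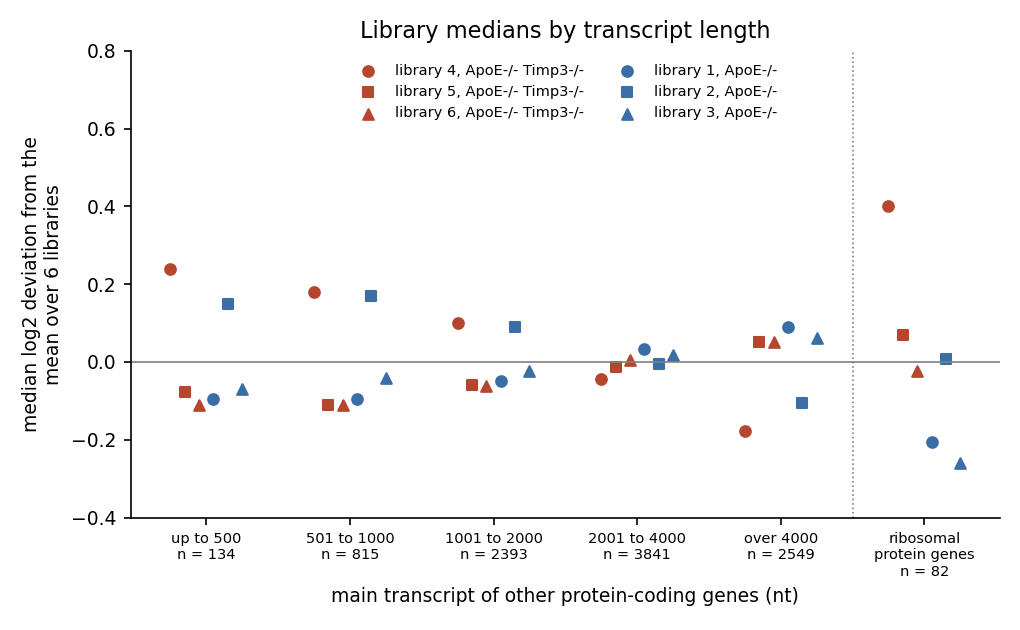
The y axis gives the median log2 deviation of each library from the mean over the 6 libraries, for other protein-coding genes grouped by the length of their main transcript and, right of the dotted line, for the 82 ribosomal protein genes. Libraries 4 and 2 are high among short genes, at 0.24 and 0.15 for up to 500 nt, whereas libraries 1 and 3 are lowest among the ribosomal protein genes.

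The members differed widely in level, although nearly every protein of the ribosome is used in equal number. They include Rps19bp1, which is not a subunit and was the lowest, and paralogs that take the place of a partner. Mean FPKM over the 6 libraries ran from 2.29 to 173 among those tested, with a median of 27.3; 18 members were under 10 and 8 were at 100 or more. Among the highest were Rpl7, Rplp0, Rplp1 and Rps21, and the 5 lowest Rps19bp1, Rpl21, Rps13, Rpl36a and Rpl17. Rpl7, a large-subunit protein, was listed at 215, 180 and 172 FPKM in libraries 4, 5 and 6, against 151, 176 and 143 in libraries 1, 2 and 3. Rpl17, of the rim of the exit tunnel, was listed at 5.20, 3.89 and 3.70, against 3.09, 2.87 and 2.72. The Rpl7 ranges overlapped at library 2 and those of Rpl17 did not, with a log2 difference for Rpl17 of 0.48 ± 0.13 SE (adjusted p = 0.259 by limma), which turned to -0.52 when transcripts assembled from the reads were left out.

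Much of the signal of these genes was listed at near-identical copies. Pseudogenes named after a member had a value in 55 cases, and in 39 of these their summed scaled FPKM was above the member's own. For Rps13, of the small subunit, 7 pseudogenes added up to 141 against 3.24 for the gene, and for Rpl17 6 pseudogenes added up to 151 against 3.58. Rpl10, one of the last proteins to join the large subunit, had 11.9 beside 296 in its pseudogenes. The level of such a member is therefore uncertain, and with pseudogenes added the count of members under 10 was 7 and the median level 77.1.

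The pseudogenes showed the same direction as the genes. Of 142 tested, 135 were above 0, with a median log2 difference of 0.46, and 80 were higher in the double mutants at an unadjusted p under 0.05, where 6.96% of all genes were. Their summed scaled FPKM was 7959, 6540 and 5880 in libraries 4, 5 and 6, against 4548, 5666 and 4530 in libraries 1, 2 and 3. Here all double mutants lay above all controls, a ratio of 1.38 with an exact permutation p of 0.1, the smallest possible. Reads of these loci and of the genes cannot be told apart in the deposited values, so the pseudogenes are no separate line of evidence. The 27 members without a pseudogene of their name gave a median of 0.27, with 26 above 0.

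**Figure D3:**
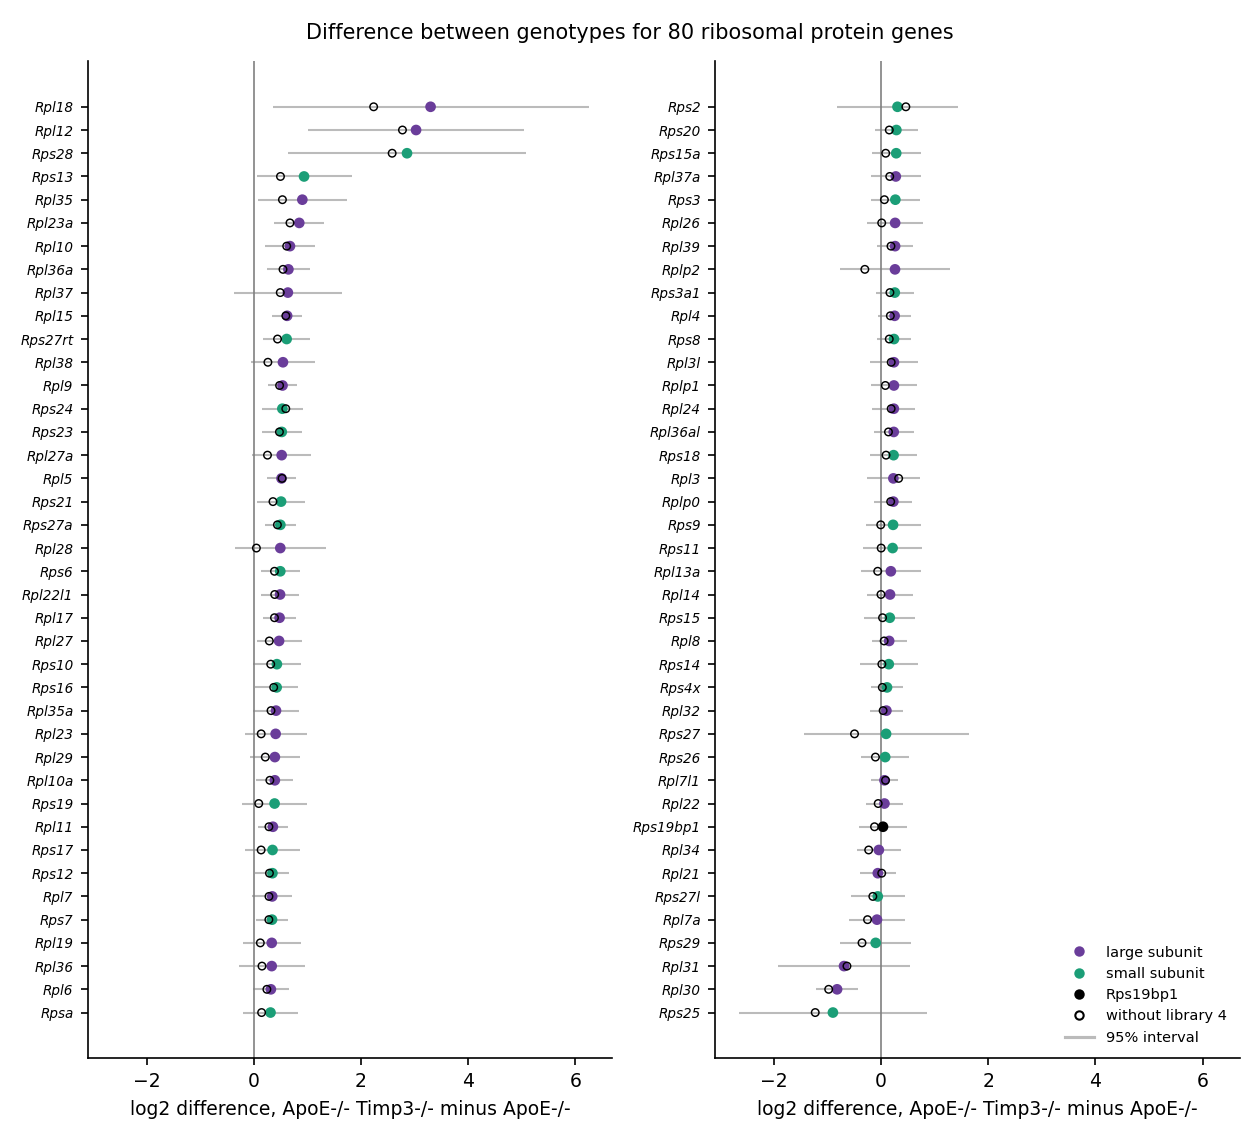
Filled points are log2 differences between genotypes for 80 of the members in falling order, left panel then right, with 95% intervals as grey lines; open circles leave out library 4. In 72 of them the filled point is above 0, and Rpl18, Rpl12 and Rps28, which have the widest intervals, are listed at 0 in some libraries.

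Rpl15, Rpl5 and Rpl9 were among the members with the smallest p and also among those with the smallest spread between replicates, whereas Rpl7l1 and Rps4x, with small spread too, had log2 differences of 0.06 and 0.11. Rpl15, an early-binding protein of the large subunit and one of the genes mutated in Diamond-Blackfan anaemia (chromosome 14, 19100337 to 19103905, NCBIM37, minus strand), was listed at 40.6, 37.0 and 34.8 FPKM in libraries 4, 5 and 6, against 29.3, 25.2 and 21.6 in libraries 1, 2 and 3. All values of the double mutants were above all of the controls, with scaled means of 38.4 ± 3.59 in double mutants and 24.5 ± 0.956 in controls (SD, n = 3 each). The log2 difference was 0.62 (95% interval 0.34 to 0.90; unadjusted p = 0.0011, adjusted p = 0.237 by limma), and 0.60 without library 4. Of the 37.0 FPKM in library 5, 9.99 were in assembled transcripts. Reference transcripts alone gave 27.0 there, below the 29.3 of control library 1 as deposited. The log2 difference was 0.46 on these and 0.83 on the strongest of them (adjusted p = 0.385 and 0.346 by limma). The window of Rpl15 above carries the longest tract of those shown.

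The 5S particle, which Rpl5 and Rpl11 form with 5S ribosomal RNA and which binds MDM2 when assembly of ribosomes fails, was higher in both its proteins. Rpl5 (chromosome 5, 108329521 to 108338024, plus strand) was listed at 39.7, 33.5 and 42.5 FPKM in libraries 4, 5 and 6, against 32.6, 25.8 and 25.8 in libraries 1, 2 and 3. Its highest value was in library 6, not in library 4, and the log2 difference was 0.52 ± 0.11 SE (adjusted p = 0.239 by limma) and 0.53 without library 4. Rpl11 had a log2 difference of 0.36 ± 0.12 SE (adjusted p = 0.328 by limma). For both the scaled values of the genotypes did not overlap, and Rpl5 had 388 FPKM in 2 pseudogenes beside its own 33.3.

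Around the exit tunnel, where the growing chain leaves the large subunit, 6 of 7 members were above 0. Rpl23a, the docking site of factors that meet the new chain, was listed at 71.4, 45.1 and 47.0 FPKM in libraries 4, 5 and 6, against 30.9, 37.1 and 25.1 in libraries 1, 2 and 3, a log2 difference of 0.85 (adjusted p = 0.242 by limma) and 0.68 without library 4. Of the 45.1 FPKM of Rpl23a in library 5, 13.2 were in assembled transcripts. Its reference transcripts alone gave 31.8 there, below the 37.1 of control library 2 as deposited. Rpl35, next to Rpl23a, was listed at 104, 46.3 and 41.8, against 47.7, 33.6 and 21.2. The scaled values of Rpl35 did not overlap, yet library 4 was far above the others, and the log2 difference fell to 0.54 without it, against 0.91 with it. Of the 104 FPKM of Rpl35 in library 4, 64.0 were in transcripts assembled from the reads. Reference transcripts alone gave 39.7, 46.3 and 14.1 FPKM in libraries 4, 5 and 6, against 18.1, 33.6 and 21.2 in controls. On these the genotypes overlapped. Rpl31 was the exception, at 15.3, 23.5 and 10.8 FPKM against 13.1, 44.2 and 35.0, with a wide interval of -1.93 to 0.55 on the log2 scale. Of its FPKM in controls, however, 36.6 in library 2 and all 35.0 in library 3 were in assembled transcripts. Its reference transcripts alone gave 15.3, 23.5 and 10.8, against 11.3, 7.54 and 0, a difference in the other direction.

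The stalk, a flexible arm of Rplp0 with pairs of Rplp1 and Rplp2 that recruits elongation factors, showed no clear difference. Rplp0 was listed at 172, 143 and 145 FPKM in libraries 4, 5 and 6, against 133, 154 and 125 in libraries 1, 2 and 3. Rplp1 was listed at 194, 126 and 132, against 144, 149 and 106. In both, control library 2 lay within the double mutants, and the log2 differences were 0.23 and 0.24, with 95% intervals of -0.13 to 0.58 and -0.19 to 0.67. Rplp2 was listed at 71.6, 19.0 and 21.0 against 29.3, 26.4 and 25.0, so that its log2 difference of 0.26 turned to -0.30 without library 4. Of its 71.6 FPKM in library 4, 50.6 were in assembled transcripts.

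In the small subunit 30 of 33 members were above 0. Rps27a, made as a fusion with ubiquitin, was listed at 22.7, 18.1 and 19.2 FPKM in libraries 4, 5 and 6, against 17.4, 12.7 and 14.0 in libraries 1, 2 and 3, a log2 difference of 0.50 (adjusted p = 0.259 by limma). Rps6, the protein that S6 kinases phosphorylate downstream of mTORC1, was listed at 43.0, 29.5 and 34.0, against 27.8, 29.5 and 21.1, a log2 difference of 0.50 ± 0.15 SE (adjusted p = 0.289 by limma). The scaled values of the genotypes did not overlap for either gene. In Rps27a, 4.34 of the 19.2 FPKM in library 6 were in assembled transcripts. Rps23, which lies at the decoding centre, had a log2 difference of 0.52, and Rps24, mutated in some families with Diamond-Blackfan anaemia, had 0.53. Of the 85.1 FPKM of Rps24 in library 5, however, 45.3 were in assembled transcripts. Its reference transcripts alone gave 39.7 FPKM there, below the controls at 49.8, 52.0 and 47.1 as deposited. Rps19, the gene most often mutated in that anaemia, had 0.39 with an interval of -0.22 to 0.99 and 0.09 without library 4.

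Rps21, the small-subunit gene whose start is shown above, leaned on library 4. It was listed at 172, 120 and 113 FPKM in libraries 4, 5 and 6, against 103, 114 and 80.0 in libraries 1, 2 and 3, with log2 differences of 0.51 and, without library 4, 0.36. Control library 2 reached the double mutants. Rps13 was listed at 8.72, 1.91 and 3.69, against 1.67, 2.19 and 1.42, and library 4 alone was far from the rest.

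The largest differences of those described here rested on values of 0. Rpl12, at the base of the stalk, was listed at 24.4, 14.8 and 11.6 FPKM in libraries 4, 5 and 6, against 0, 0 and 8.26 in libraries 1, 2 and 3. The Rpl12 values in libraries 4 and 5 were wholly in assembled transcripts. Its reference transcripts alone gave 0, 0 and 11.6 in double mutants, against 0, 0 and 8.26 in controls. Rpl18 was listed at 42.8, 19.1 and 0, against 0 in all 3 controls. Rps28 was listed at 24.5, 11.5 and 13.4, against 0, 11.9 and 0. Every cell needs these proteins, so a value of 0 can be an estimate that failed, and no fold is drawn from them. The 45 members with reference transcripts alone in all libraries and no 0 gave a median log2 difference of 0.28, with 42 above 0.

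Only 8 members were below 0, and Rpl30 was the single one at an unadjusted p under 0.05. Rpl30, a large-subunit protein that in yeast binds and represses its own transcript (chromosome 15, 34370260 to 34373395, minus strand), was listed at 15.3, 8.81 and 11.3 FPKM in libraries 4, 5 and 6, against 24.6, 24.1 and 18.6 in libraries 1, 2 and 3. The scaled means were 12.0 ± 2.67 in double mutants and 21.7 ± 1.95 in controls (SD, n = 3 each), a log2 difference of -0.82 (95% interval -1.22 to -0.43; adjusted p = 0.238 by limma) and -0.98 without library 4. Its 9 pseudogenes went the other way, with summed scaled FPKM of 160, 144 and 126 in libraries 4, 5 and 6, against 93.0, 101 and 98.9 in libraries 1, 2 and 3. With these added the difference of Rpl30 was 0.37, so the gene's place among the lower members holds for reads given to the gene alone.

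The other 7 did not differ beyond their spread. Rps25 was listed at 27.8, 4.57 and 32.3 FPKM in libraries 4, 5 and 6, against 24.4, 20.9 and 70.1 in libraries 1, 2 and 3, among the most scattered of the members. Rpl7a, Rpl21, Rpl34, Rps27l and Rps29, together with Rpl31 above, had log2 differences of -0.69 to -0.04, all with intervals that included 0. Rps2, a protein of the entry side of the mRNA channel, was also scattered, at 25.6, 54.5 and 20.2, against 52.3, 20.4 and 16.0. The 54.5 and 52.3 FPKM of Rps2 were wholly in assembled transcripts, with reference transcripts at 0 in these libraries. So were the 32.3 and 70.1 FPKM of Rps25 in libraries 6 and 3, whereas the other values of both genes were of reference transcripts.

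**Figure D4:**
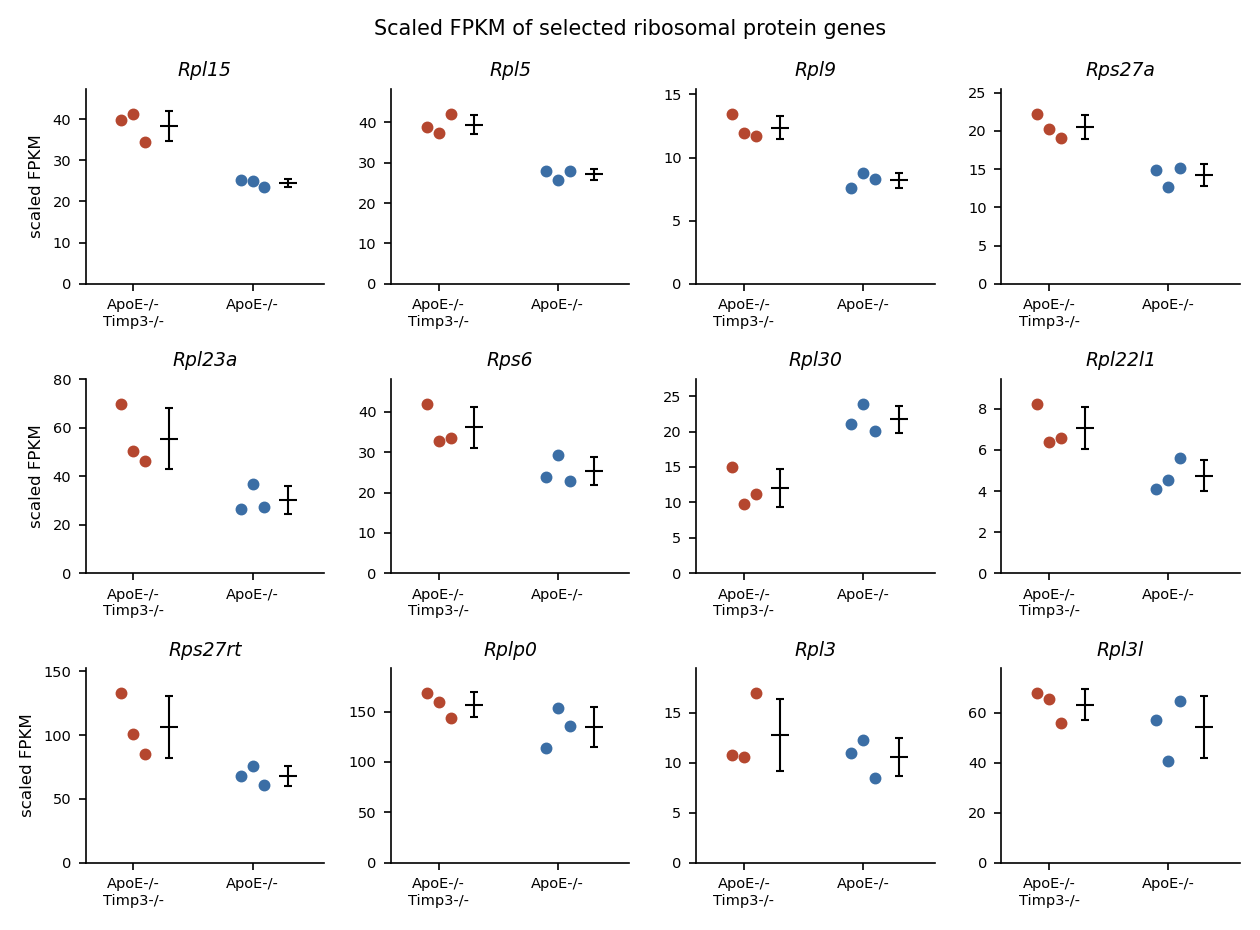
Scaled FPKM of 12 members in the double mutants (red, left; libraries 4, 5 and 6 in that order) and controls (blue, right; libraries 1, 2 and 3), with mean and SD (n = 3 each) beside the points and axes that start at 0. Rpl15, Rpl5, Rpl9 and Rps27a do not overlap between genotypes, Rpl30 is lower in the double mutants, and Rplp0, Rpl3 and Rpl3l overlap.

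Paralogs were compared as shares of their pair, since a share within a library does not move with its depth or scaling. Rpl3l, the paralog of muscle (chromosome 17, 24864774 to 24873094), was listed at 69.4, 58.9 and 56.8 FPKM in libraries 4, 5 and 6, against 66.7, 40.9 and 59.8 in libraries 1, 2 and 3, and Rpl3 at 11.0, 9.49 and 17.2, against 12.9, 12.4 and 7.86. Rpl3l made up 86.3%, 86.1% and 76.8% of the pair in the double mutants and 83.8%, 76.8% and 88.4% in the controls. The means, 83.1% ± 5.43 in double mutants and 83.0% ± 5.86 in controls (SD, n = 3 each), differed by 0.08 percentage points (exact permutation p = 0.9). Both genotypes thus had most of the pair as the muscle form, and the difference was far below the spread between replicates.

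With assembled transcripts counted, a pair of other shares did not overlap between the genotypes. Rpl22l1, the paralog of Rpl22, made up 13.4%, 13.3% and 13.7% of the pair in libraries 4, 5 and 6, against 9.17%, 8.72% and 11.8% in libraries 1, 2 and 3, a difference of 3.56 percentage points with an exact permutation p of 0.1, the smallest possible. Rpl22l1 itself was listed at 8.44, 5.75 and 6.68 FPKM, against 4.81, 4.58 and 5.16 (log2 difference 0.49, adjusted p = 0.288 by limma), all of it in assembled transcripts, while Rpl22 had a log2 difference of 0.06. Rpl36al, the paralog of Rpl36a, made up 77.4%, 74.9% and 80.9% of its pair, against 81.0%, 85.0% and 85.8% (difference -6.22 percentage points, exact permutation p = 0.1). Rpl36al differed by 0.24 and Rpl36a by 0.65 on the log2 scale, Rpl36a being listed at 5.49, 4.42 and 3.52 FPKM against 3.22, 2.86 and 1.89. Of these Rpl36a values, 2.66 FPKM in library 4, 1.52 in library 5 and 1.22 in library 1 were in assembled transcripts. Reference transcripts alone gave Rpl36a 2.83, 2.90 and 3.52 FPKM, against 2.00, 2.86 and 1.89 in controls. On these the genotypes overlapped, so the separation of the Rpl36al share rests on counting assembled transcripts. The 2 shares were of 6 pairs compared, and adjusted over the 6 by Benjamini-Hochberg both had an exact permutation p of 0.3. Rpl36a had a mean of 3.57 scaled FPKM beside 30.8 in 3 pseudogenes of its name. Rpl22 had 44.5 beside 16.3 in 1 pseudogene. The shares leave these pseudogenes out, so their size is uncertain, most of all for Rpl36al.

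The remaining pairs overlapped. Rps27rt, an intronless copy of Rps27, was listed at 136, 90.7 and 86.1 FPKM in libraries 4, 5 and 6, against 79.2, 76.6 and 56.0 in libraries 1, 2 and 3, far above Rps27 itself at 12.8, 5.40 and 1.24 against 2.85, 8.41 and 4.07. Rps27rt held 94.8% ± 3.61 of that pair in double mutants and 93.3% ± 3.21 in controls (SD, n = 3 each; exact permutation p = 0.6); reads of copies this alike can be placed at either. Rpl7l1, the paralog of Rpl7, held 2.70% ± 0.475 in double mutants and 3.24% ± 0.534 in controls (exact permutation p = 0.3), and Rps27l 80.3% ± 13.3 and 83.7% ± 4.54 of the pair with Rps27 (exact permutation p = 0.8). Rpl10l, a copy used in testis, was listed at 0 in all libraries and Rpl39l, another, at 0 to 0.257 FPKM, so neither was tested. Of the partners left, Rps4x, encoded on the X chromosome, was listed at 47.4, 36.4 and 36.6 FPKM in double mutants, against 44.1, 39.9 and 33.0 in controls (log2 difference 0.11), and Rpl39 had a log2 difference of 0.26 with an interval that included 0.

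**Figure D5:**
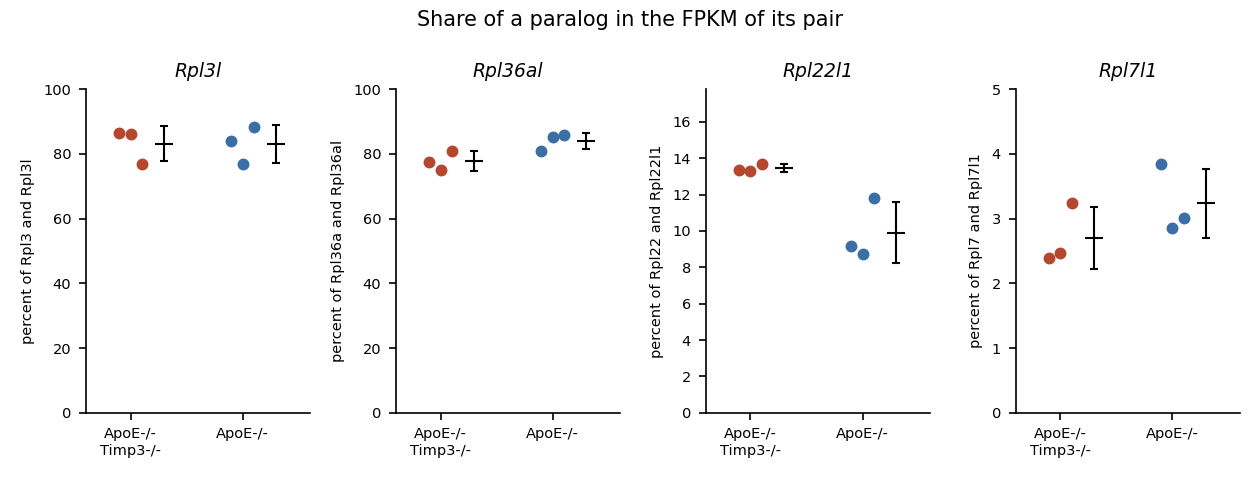
Percent of the pair's FPKM held by Rpl3l, Rpl36al, Rpl22l1 and Rpl7l1 in each library (double mutants red, left; controls blue, right), with mean and SD (n = 3 each); the axes start at 0 and differ in range. The Rpl3l shares overlap between 76.8% and 88.4%, and those of Rpl22l1 and Rpl36al, with assembled transcripts counted, do not overlap.

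Members were also grouped by the sequence at their start. The 14 members with a tract at a listed start were all above 0, with a median log2 difference of 0.46, and the 48 tested members with a listed start and no tract had a median of 0.31 with 43 above 0. At an unadjusted p under 0.05, 5 of the 14 and 17 of the 48 were higher in the double mutants, 35.7% and 35.4%. Members with CCGGAAG (24 tested) had a median of 0.32 with 20 above 0, and those with a promoter and none (38 tested) 0.37 with 37 above 0. At an unadjusted p under 0.05, 6 of the 24 (25.0%) and 16 of the 38 (42.1%) were higher in the double mutants. No difference between these groups of members was tested.

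Genes that serve the same pathway lay nearer to 0 than the members did. Other mRNAs known to carry a TOP tract (23 tested) had a median log2 difference of 0.17 with 17 above 0; Hnrnpa1 (0.51) had the smallest p. Fau, which encodes a small-subunit protein fused to a ubiquitin-like one, was at -0.28, Rack1, a small-subunit protein outside the naming rule, at 0.11, and the elongation factor gene Eef1a1 at -0.002, so members of this class lay on both sides of 0. Initiation factors (28 tested) had a median of 0.08. Eif3m (0.28) and Eif4a1 (0.32) had the smallest p of these, Eif1 the largest difference (0.46), and Eif4g1 was at -0.26.

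Genes that build ribosomes had a median of 0.07 over 48 tested, with 4 higher at an unadjusted p under 0.05, where 6.96% of all genes were. Nop58 (log2 difference 0.48), of the particle that methylates ribosomal RNA, and nucleolin, Ncl (0.41), had the smallest p of these, and Rrp12 was at -0.27. RNA polymerase I and its factors had a median of -0.03 over 19 genes. A list of mTORC1 with its regulators and targets, and of genes named as S6 kinases, had -0.06 over 26. In it Rps6ka2 (-0.55), taken by its name and not as part of mTORC1, and Rragd (-0.44) were lowest by p. Mitochondrial ribosomal proteins, the subunits of the organelle's own ribosome, had a median of 0.04 over 77 genes, of which 1 was higher and 2 lower at an unadjusted p under 0.05; Mrps12 was at -0.88 and Mrpl36 at -0.43. None of these lists had a gene that passed the adjusted threshold.

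The genes outside the members whose pattern over the 6 libraries was most like that of the members were largely other short transcripts and pseudogenes. By Pearson r of log2 values with the members' mean profile, over 6 libraries, the first were Gm7808 (0.999), a processed pseudogene, Atp5g2 (0.997), which encodes a subunit of the mitochondrial ATP synthase, Rpl30-ps10 (0.997), Gm6887 (0.997) and Gm13192 (0.996). Atp5g2 was listed at 40.8, 24.5 and 24.9 FPKM in libraries 4, 5 and 6, against 21.3, 24.7 and 17.1 in libraries 1, 2 and 3. It too was high in library 4 and overlapped between genotypes at library 2. These r were picked as the highest of all genes and are a description.

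The entries that the annotation calls protein-coding but names as pseudogenes were left out by the rule and gave like values. Rpl9-ps1 was listed at 22.9, 13.1 and 15.5 FPKM in libraries 4, 5 and 6, against 10.3, 11.5 and 10.3 in libraries 1, 2 and 3, and Rpl36a-ps1 at 22.3, 16.3 and 15.7, against 15.0, 11.7 and 10.7. Their parents followed the same order: Rpl9 was listed at 13.7, 10.7 and 11.9, against 8.85, 8.83 and 7.63 (log2 difference 0.54, adjusted p = 0.239 by limma). Of Rpl10, listed at 16.5, 12.5 and 14.4 against 11.9, 10.8 and 5.74, the log2 difference was 0.68 (adjusted p = 0.277 by limma). Scaled values did not overlap between genotypes in any of these 4.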

How the data were processed

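The authors deposited 1 transcript file per library, with FPKM in its attribute text. Per the submitters' processing notes, TopHat, Bowtie and Cufflinks were used on build NCBIM37; versions, settings and any use of strand are not stated in the sources used here. Every library was normalized on its own. A gene's FPKM was the sum of its reference transcripts, joined by transcript ID, gene ID or exon overlap of at least 50%, and of assembled transcripts of at least 300 nt joined by that overlap. A later annotation (GENCODE, GRCm38) served for identifiers and symbols alone, and gene coordinates are those of the files. Depth was judged from coverage times length. Reads per gene are unknown, so no counting interval is given.

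Tested were genes with a mean FPKM of at least 1 whose longest transcript had at least 300 nt. FPKM were scaled by the median of ratios. Genotypes were compared on log2(scaled FPKM + 1) by limma 3.58.1 (R 4.3.3), two-sided, with its intensity trend, and p-values were adjusted by Benjamini-Hochberg over all genes, at 0.05; this scale understates differences of low genes. Single-library values are as deposited, and means ± SD are scaled. No block was used, because no number is shared between groups in the labels. Controls are called littermates and nothing else relates the samples, so a p-value here measures only the spread between them, which may be technical. On simulated data for this comparison, with 11266 genes, differences of 0.5, 1 and 2 on the log2 scale were called in 8.96%, 56.7% and 97% of the genes given them. The most scattered genes were given no difference, and noise was drawn for each gene on its own, without shifts shared within a library. These rates therefore need not hold for the members.

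The members and all lists were chosen with earlier results of these data known. Named were the 5 highest and 5 lowest members, up to 10 of smallest p in each direction, the 3 most and the 3 least scattered, paralogs with their partners, members listed at 0, up to 2 genes of each pathway list in each direction, and the 5 genes of most like pattern. Rps6, Rps18, Rps19, Rps23, Rps24, Rpl11, Rpl35, Rplp2, Rps2, Eef1a1, Eif1, Apoe, Myl7, Nppa and the entries named as pseudogenes fell outside this rule and were chosen after their values were seen. A few genes taken by it are left out of the text. Promoters were RefSeq's, of GRCm38.p6. Alternatives changed the scaling, pseudocount, filters, transcripts summed and weights, or left out libraries.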

Additional observations from a re-analysis of the deposited data

How the results depend on the processing

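The median log2 difference of the members stayed above 0 under all 22 alternatives: 0.17 to 0.42 with 1 library left out (lowest without library 4, highest without library 6), 0.13 with scaling to a fixed total, which put all genes at -0.16, 0.20 with quantile normalization, and 0.11 without libraries 3 and 4, the only setting that moved it by more than the spread between libraries. The count of members called was 0, and 0 to 1 with 1 library left out: Rps28 without library 2, Rpl12 without 3 (also without 3 and 4, giving 1) and Rpl18 without 6, all listed at 0 in some library. With libraries weighted by their spread 3 were called, among them Rpl15 and Rpl30, both at an adjusted p of 0.0498, and 101 of all genes (0.888%), against 5 without weights. Members higher at an unadjusted p under 0.05 were 26 (6.96% of all genes were), 36 with weights (11.6%), 30 with pseudogenes added (6.54%), 14 to 28 with 1 library left out (4.46% to 7.36%), 16 without further scaling (3.37%) and with reference transcripts only (5.98%), 17 with a fixed total (2.95%), 13 with the strongest reference transcript (5.71%) and 12 without libraries 3 and 4 (5.16%); those lower were 1, 1 to 2 with 1 library left out, 2 with weights, with reference transcripts only or with the strongest, and 0 with pseudogenes added. The Rpl3l share difference of 0.08 points ran from -3.04 to 3.21 with 1 library left out and was -0.27 with pseudogenes added, and the log2 ratio in its place gave -0.00398. No paired analysis was possible because the labels number the libraries 1 to 6 and the genotypes share no number.

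Of 35 named members, 18 kept their direction in every setting, and those that turned were mostly near 0; the cause was not tested. With reference transcripts only, and with the strongest of them, the log2 difference was -0.52 in both for Rpl17 (0.48 as reported), -0.032 and -0.041 for Rpl3, 1.92 and 1.91 for Rpl31, and 0.78 and 0.86 for Rpl34; with the strongest alone it was -0.0065 for Rplp0 and -0.44 for Rps27a. With pseudogenes added it was 0.051 for Rpl21, 0.37 for Rpl30, 0.42 for Rpl31, 0.30 for Rpl34, 0.19 for Rpl7a and 0.14 for Rps25. Without further scaling it was -0.0099 for Rpl22 and -0.0100 for Rps19bp1. With a fixed total it was -0.12 for Rpl22, -0.095 for Rpl7l1, -0.097 for Rps19bp1, -0.067 for Rps27 and -0.074 for Rps4x, with quantile normalization -0.10 for Rpl22 and -0.023 for Rps4x, and with weights -0.15 for Rps19bp1 and -0.22 for Rps27. Without libraries 3 and 4 it was 0.040 for Rpl21, -0.080 for Rpl22, -0.048 for Rps19bp1, -0.52 for Rps27 and -0.014 for Rps4x. With 1 library left out it ran from -0.17 to 0.011 for Rpl21, -0.054 to 0.13 for Rpl22, -0.23 to 0.074 for Rpl34, -0.25 to 0.18 for Rpl7a, -0.12 to 0.17 for Rps19bp1, -0.50 to 0.80 for Rps27, -0.26 to 0.13 for Rps27l and -0.36 to 0.19 for Rps29, lowest without library 4 for all but Rpl21 and Rps27l.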
